A study of Mus musculus with 38 samples.

Results

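Osteoclasts are the multinucleate cells that resorb bone, and they form when macrophage precursors fuse under the control of the ligand RANKL and its receptor RANK. The genes of this differentiation program are used in order, from the receptors through the transcription factor NFATc1 to the fusion proteins and the enzymes that acidify and digest the matrix, and several of them are also switched on in macrophages and giant cells outside bone. Siglec15, a sialic acid-binding receptor of myeloid cells that pairs with the adaptor DAP12, belongs to this program and has also been studied as an inhibitor of T cells in tumors.

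Siglec15 and 9 genes of the osteoclast program were followed in 2 orthotopic mouse models of high-grade serous ovarian cancer. The 9 genes were Acp5, Ctsk, Ocstamp, Dcstamp, Atp6v0d2, Oscar, Nfatc1, Tnfsf11 and Tnfrsf11a. All 10 members are protein-coding and were found by Ensembl identifier among the 55487 genes of the tumor table and of the cell line table. The members were chosen by a measured value, namely that Siglec15 was among the largest rises in treated 60577 tumors at the first time point, so that contrast is described below without a test.

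60577 cells were injected intraperitoneally into female FVB mice and HGS2 cells into female C57BL/6J mice aged 8 to 9 weeks, so that model and mouse strain cannot be told apart, and the labels used here give no genotype of the lines. Treated mice received 3 weekly intraperitoneal doses of carboplatin (20 mg/kg) with paclitaxel (10 mg/kg), starting 3 weeks (60577) or 7 weeks (HGS2) after injection, and controls received vehicle. Omental tumors were taken 1 day (TP1), 1 week (TP2) and 3 weeks (TP3) after the last dose, with no control group at TP3. The 60577 groups held 3 control and 3 treated tumors at TP1, 3 and 4 at TP2, and 4 treated tumors at TP3. The HGS2 groups held 3 and 3 at TP1, 4 and 3 at TP2, and 4 treated tumors at TP3, and replicate 1 of the latter, which has no entry in the table of per-tumor scores that accompanies the study, was left out of the fits. Each cell line was also sequenced in monoculture (2 libraries each).

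Tumor libraries summed to between 17839635 and 49299442 expected counts and cell line libraries to between 31633121 and 42461995. Levels are given as CPM, counts scaled to library size by the trimmed mean of M values, and a gene was called at an adjusted p under 0.05 with a log2 fold change past 1, with p-values from the quasi-likelihood test of edgeR, adjusted by Benjamini-Hochberg over all genes kept. All 10 members passed the filter of 1 CPM in 25% of the 33 tumors fitted, but Siglec15, Ocstamp and Oscar reached 1 CPM in only 2 tumors of 60577 each, against 9, 12 and 8 tumors of HGS2, so that these 3 genes passed mainly through HGS2. Pancreatic acinar markers summed to between 59193 and 113252 CPM in 3 HGS2 tumors (TP1 control replicate 3, TP2 control replicate 2 and TP3 treated replicate 2). The tumors are bulk tissue, in which fewer cells of a type and less RNA per cell cannot be told apart.

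The RefSeq promoter table (GRCm38.p6) held 5 of the 10 members, with 7 start sites. The bases upstream of the start are shown for 3 members whose levels moved together across HGS2 tumors, the bone collagen protease gene Ctsk (chr3:95498960-95499209, plus strand), the collagen receptor gene Oscar (chr7:3616158-3616407, minus strand) and the tartrate-resistant acid phosphatase gene Acp5 (chr9:22130609-22130848, minus strand, from the start site nearest the 3' end of the gene, inside an intron of its longer transcripts, without the bases that other transcripts hold as exon). Capitals mark matches, on either strand, to the letters GGAAA (NFAT core), GAGGAA (PU.1), TGANTCA (AP-1) and TCATGTG (MITF E-box), and matches to different motifs may overlap.

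Ctsk: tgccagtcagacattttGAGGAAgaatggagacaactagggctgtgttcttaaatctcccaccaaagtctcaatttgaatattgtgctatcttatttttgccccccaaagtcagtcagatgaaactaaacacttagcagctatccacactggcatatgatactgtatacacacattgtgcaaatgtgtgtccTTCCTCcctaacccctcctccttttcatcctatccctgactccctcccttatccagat

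Oscar: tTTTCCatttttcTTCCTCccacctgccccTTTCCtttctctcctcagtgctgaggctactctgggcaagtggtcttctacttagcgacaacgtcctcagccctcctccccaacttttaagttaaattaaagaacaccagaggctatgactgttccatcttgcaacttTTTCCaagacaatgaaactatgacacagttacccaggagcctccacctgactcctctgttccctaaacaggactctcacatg

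Acp5: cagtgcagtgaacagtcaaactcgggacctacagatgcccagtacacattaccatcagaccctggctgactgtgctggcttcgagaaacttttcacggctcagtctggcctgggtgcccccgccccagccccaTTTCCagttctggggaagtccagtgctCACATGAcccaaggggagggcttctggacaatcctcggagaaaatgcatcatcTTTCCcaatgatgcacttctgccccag

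The Ctsk stretch held 2 PU.1 matches, the Oscar stretch 3 NFAT core matches and 1 PU.1 match, and the Acp5 stretch 2 NFAT core matches and 1 MITF E-box. The stretches not shown held less, with 1 NFAT core match and no other in each of the other two Acp5 promoters and in that of Tnfsf11, and no match in that of Tnfrsf11a. The AP-1 letters were found in none of the 7 member promoters. Among all 32851 promoters of the table, the 250 bases before the start held the NFAT core letters in 55.6%, the PU.1 letters in 23.3%, the AP-1 letters in 6.75% and the MITF E-box letters in 3.25%. These are letter matches only.

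In 60577 tumors, Siglec15 was close to undetected in the TP1 controls and stood highest in the TP1 treated tumors. The TP1 controls held 2, 0 and 1 Siglec15 counts and the TP1 treated tumors 89, 19 and 116, or 2.78, 0.671 and 4.49 CPM. The value that chose Siglec15 was its fitted log2 fold change of 6.07, which depends on the prior count and ranked 16 among the 16241 genes kept. It is given as a description, and no test is drawn from this contrast, in which 9.65% of all genes were called higher.

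The other osteoclast genes lay higher in the same treated tumors. Oscar, an activating receptor that binds collagen, had 1.25, 0.0707 and 3.06 CPM in the treated tumors and at most 0.118 CPM in the controls. The fusion genes stood at 4.22, 0.459 and 10.2 CPM (Ocstamp) and 15.4, 6.61 and 22.9 CPM (Dcstamp), against at most 0.228 and 3.86 CPM in controls. Atp6v0d2, the proton pump subunit of osteoclasts, was at 31.5, 4.10 and 31.9 CPM after chemo and between 0.312 and 1.18 CPM without it. In each of these genes treated replicate 2 stood far below the other two treated tumors.

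Ctsk reached 172, 36.0 and 354 CPM in the TP1 treated tumors, against 10.2 to 19.3 CPM in controls. Acp5 reached 152, 66.5 and 211 CPM, against 27.8 to 39.5 CPM. Nfatc1, the transcription factor that drives osteoclast formation, was at 63.4, 48.1 and 112 CPM, against 26.5 to 29.1 CPM in controls. The RANKL gene Tnfsf11 stood at 12.2, 5.30 and 35.2 CPM against 1.70 to 3.03 CPM, and the RANK gene Tnfrsf11a at 47.8, 36.3 and 72.7 CPM against 25.6 to 38.5 CPM. Treated replicate 2 was the lowest and replicate 3 the highest of the treated tumors for all 10 members, and Oscar and Tnfrsf11a overlapped with the controls through replicate 2.

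**Figure D1:**
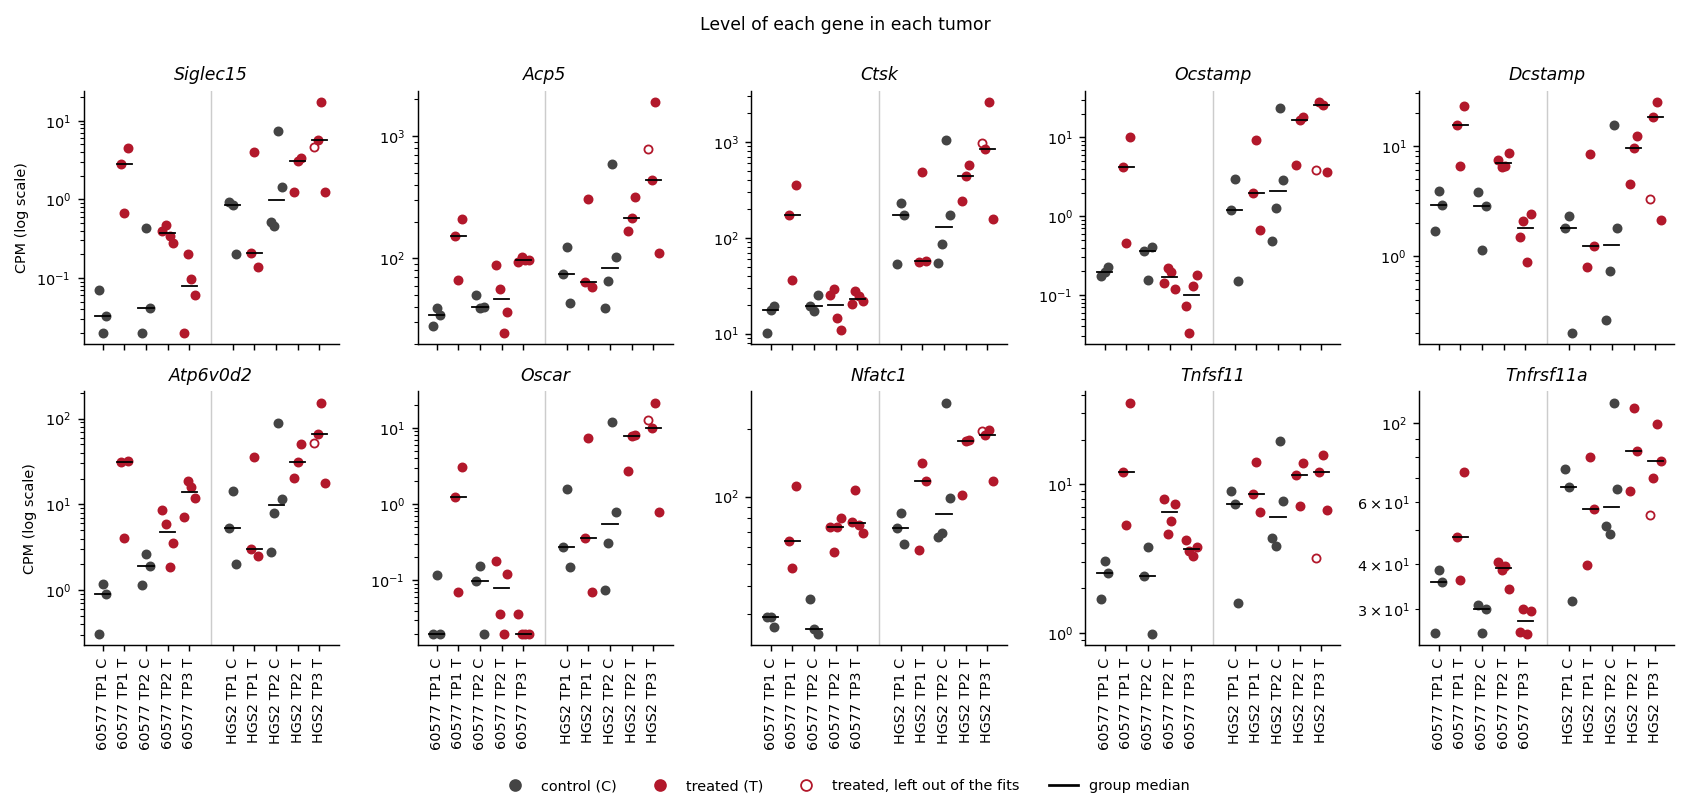
Level of each of the 10 genes in each tumor (y axis, CPM on a log scale, with values under 0.02 drawn at 0.02) by model, time point and treatment (x axis, C control, T treated). Each point is a tumor and each line a group median without the open point, HGS2 TP3 treated replicate 1. In 60577 the members stand highest in TP1 treated replicate 3, while in HGS2 single tumors of several groups stand high.

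Markers of other cells also differed in the same contrast. The summed level of 10 macrophage markers was 2860 to 4101 CPM in the TP1 treated tumors and 732 to 1066 CPM in the controls. This sum leans on Lyz2, which ran from 288 to 2878 CPM over the 17 tumors of 60577. Of the 10 markers, 3 had a log2 fold change above 1, and the median was 0.75. The sum of 8 markers of lipid-associated macrophages was 1031 to 2553 CPM against 534 to 624 CPM, although 60577 cells in monoculture also held 693 to 774 CPM of them. The sum of 6 epithelial tumor cell markers was 236 to 405 CPM against 1088 to 1358 CPM. Fibroblast markers summed to 6680 to 10936 CPM after chemo and 2772 to 4663 CPM without, neutrophil markers to 32.3 to 140 CPM against 9.11 to 21.5 CPM, and T cell markers to 21.4 to 66.8 CPM against 6.03 to 18.1 CPM. Their part in the member levels was not tested. The osteoblast and chondrocyte list summed to 73.5 to 124 CPM after chemo and 103 to 112 CPM without, so the ranges overlapped.

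At TP2, 1 week after the last dose, 3 of 10 members were called higher in treated than in control 60577 tumors (Dcstamp, Nfatc1 and Tnfsf11), against 14.8% of all genes tested. This comparison sets none of the tumors that chose the members against each other, although the fit estimated the spread over all 5 groups of the model. With both models fitted together only Nfatc1 was called. The median log2 fold change of the members was 0.77, beside 0.03 over all genes. None was called lower.

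Markers of lymphocytes, dendritic cells, tumor cells, dividing cells and neutrophils moved with this comparison. The T cell sum was 4.82 to 24.9 CPM in the TP2 controls and 81.6 to 145 CPM in the treated tumors, the B cell sum 2.80 to 19.3 CPM against 68.0 to 193 CPM, and the dendritic cell sum 43.2 to 81.7 CPM against 124 to 142 CPM. Of these markers, 6 of 6, 5 of 5 and 5 of 6 were called higher. Epithelial tumor cell markers summed to 1308 to 1908 CPM in the TP2 controls and to 186 to 375 CPM in the treated tumors. Dividing cell markers summed to 478 to 498 CPM against 118 to 184 CPM, and 3 of 4 neutrophil markers tested were called lower. The part of all these lists in the changes of members and of pathway genes was not tested.

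Nfatc1 was at 35.2, 25.8 and 24.7 CPM in the TP2 controls and at 73.5, 57.0, 73.7 and 80.1 CPM in the treated tumors, with no overlap. Its log2 fold change was 1.31 ± 0.25 (SE, n = 3 and 4, edgeR adjusted p = 0.000484), and it was called without any 1 of the 17 tumors. Dcstamp, which encodes the fusion protein DC-STAMP, was at 3.83, 1.12 and 2.84 CPM in controls and at 7.41, 6.40, 6.52 and 8.69 CPM in treated tumors (log2 1.48 ± 0.46, edgeR adjusted p = 0.0129). Without control replicate 2 its edgeR adjusted p was 0.0589.

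Tnfsf11, which encodes the ligand RANKL, was at 2.42, 3.76 and 0.987 CPM in controls and at 7.98, 4.62, 5.69 and 7.33 CPM after chemo (log2 1.40 ± 0.52, edgeR adjusted p = 0.0321). Its groups did not overlap, but the call was lost without control replicate 1 or 3 or treated replicate 1 or 4, with an adjusted p of up to 0.121 in edgeR. Its receptor gene Tnfrsf11a was at 30.8, 25.7 and 29.9 CPM against 40.6, 38.7, 39.7 and 34.1 CPM, a log2 difference of 0.40 ± 0.19 with an edgeR adjusted p of 0.0823.

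Siglec15 itself did not pass at TP2. Its controls were at 0, 0.435 and 0.0411 CPM and its treated tumors at 0.394, 0.473, 0.343 and 0.280 CPM, so that only control replicate 2 overlapped with them. The log2 fold change was 1.13 with a 95% interval of -0.66 to 2.92 (edgeR adjusted p = 0.299), and without control replicate 2 it was 4.05 with an edgeR adjusted p of 0.0213. The count of 0 in control replicate 1 allows up to 0.0982 CPM.

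Several resorption and fusion genes were not called at TP2, and their groups overlapped. Ctsk was at 19.5, 17.4 and 25.04 CPM in controls and at 25.1, 29.0, 14.6 and 10.8 CPM after chemo, a log2 difference of -0.06 with a 95% interval of -1.07 to 0.95. Ocstamp had at most 0.411 CPM and Oscar at most 0.179 CPM in these tumors. Acp5 was at 39.3 to 49.9 CPM in controls and at 24.6 to 88.8 CPM after chemo. Atp6v0d2 was at 1.15 to 2.67 CPM in controls and at 1.86 to 8.55 CPM after chemo, with a log2 difference of 1.37 ± 0.66 (edgeR adjusted p = 0.0871). The summed macrophage markers were at 959 to 1515 CPM in controls and at 982 to 3427 CPM in treated tumors. Of the 10 markers, 3 were called higher and 1 lower, and their part in these values was not tested.

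**Figure D2:**
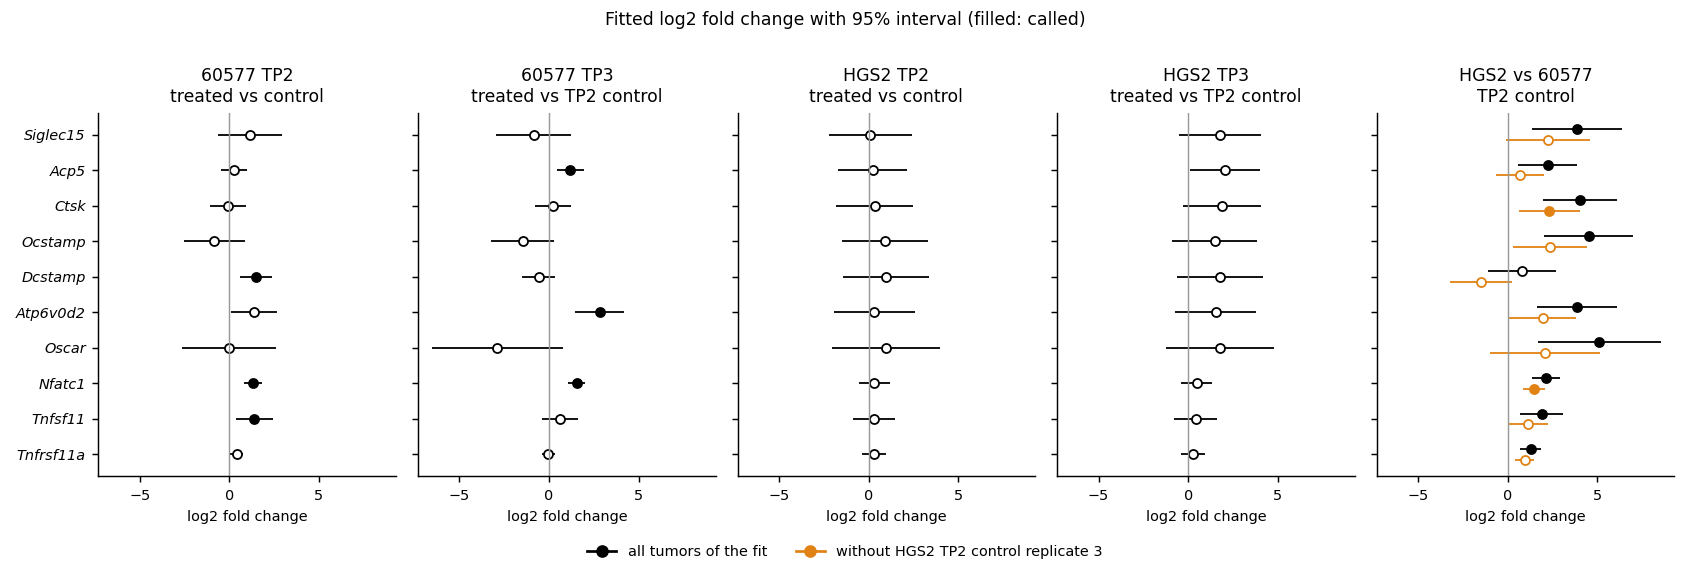
Fitted log2 fold change (x axis) of each gene (y axis) in 5 comparisons, with an approximate 95% interval (normal quantile) as a bar and a filled point where the gene was called. In 60577, 3 members are filled at TP2 and 3 at TP3, in HGS2 none is, and the 9 members filled between the models fall to 2 (orange) without HGS2 TP2 control replicate 3.

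At TP3, 3 weeks after the last dose, 3 of 10 members were called higher in treated 60577 tumors than in the TP2 controls (Acp5, Atp6v0d2 and Nfatc1), beside 14.2% of all genes. There is no TP3 control, so treatment and time cannot be told apart, and this comparison shares its controls with the one above. Atp6v0d2 was at 7.11, 18.8, 16.1 and 11.8 CPM, above all 3 TP2 controls (log2 2.82 ± 0.69, edgeR adjusted p = 0.00308). Acp5 was at 93.6, 103, 97.9 and 97.4 CPM (log2 1.19 ± 0.38, edgeR adjusted p = 0.0167), and Nfatc1 at 77.5, 107, 74.5 and 69.3 CPM (log2 1.53 ± 0.25, edgeR adjusted p = 0.000126). The Acp5 call was lost without TP2 control replicate 2 or 3, with an edgeR adjusted p of at most 0.0545, and with both models fitted together.

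The other 7 members were not called at TP3. Siglec15 was at 0, 0.199, 0.0967 and 0.0603 CPM, its log2 difference from the TP2 controls being -0.86 with a 95% interval of -2.93 to 1.22, and 2.06 without TP2 control replicate 2. Ctsk was at 20.5 to 27.8 CPM, Dcstamp at 0.870 to 2.38 CPM and Ocstamp at 0.0332 to 0.181 CPM. The median log2 fold change of the members was 0.08. Adipocyte markers summed to 1365 to 1964 CPM in these 4 tumors and to 46.6 to 54.1 CPM in the TP2 controls, while macrophage markers summed to 2585 to 3654 CPM. Epithelial tumor cell markers summed to 123 to 161 CPM in these tumors against 1308 to 1908 CPM in the TP2 controls. Dividing cell markers summed to 67.8 to 102 CPM against 478 to 498 CPM. The part of these lists was not tested.

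Between the treated tumors of TP2 and TP3, 1 of 10 members was called lower, beside 4.4% of all genes, and none was called higher. It was Dcstamp, at 6.40 to 8.69 CPM at TP2 and 0.870 to 2.38 CPM at TP3 (log2 -2.07 ± 0.43, edgeR adjusted p = 0.00451), and its call was lost with both models fitted together. Siglec15 was also lower in every TP3 tumor than in every TP2 treated tumor, but its log2 difference of -1.99 ± 0.91 did not pass (edgeR adjusted p = 0.0985). Acp5 was higher in every TP3 tumor, by 0.94 ± 0.34 on the log2 scale (edgeR adjusted p = 0.0465), and missed the fold limit. Levels of Dcstamp and Acp5 thus went opposite ways between these groups.

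In HGS2 tumors, no member was called in any of 5 comparisons by edgeR, and neither was any other gene (0% of 16241). The comparisons were treated against control at TP1 and at TP2, TP3 treated against TP2 control, and TP2 against TP1 and TP3 against TP2 among treated tumors. DESeq2's Wald test called between 1 and 105 genes in them, none of them a member, and limma-voom called none. At an unadjusted p under 0.05 edgeR gave 413, 1233, 406, 152 and 1690 genes in that order, and no member in any of them.

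For all 10 members the groups overlapped in each HGS2 comparison, and levels varied widely inside the groups. Siglec15 was at 0.930, 0.856 and 0.199 CPM in TP1 controls and at 0.206, 3.98 and 0.140 CPM in TP1 treated tumors, where only replicate 2 was above the controls. At TP2 it was at 0.521, 0.463, 7.36 and 1.44 CPM in controls and at 1.23, 3.06 and 3.34 CPM after chemo. The TP3 treated tumors were at 4.64, 5.77, 17.2 and 1.22 CPM, the first being the tumor left out of the fits.

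The fitted Siglec15 differences in HGS2 had wide intervals on both sides of 0. At TP1 the log2 difference was 1.12 (95% interval -1.46 to 3.70) and -1.89 without treated replicate 2, at TP2 0.08 (-2.24 to 2.41), and for TP3 against TP2 controls 1.78 (-0.53 to 4.08). All 10 log2 differences were positive at TP1, at TP2 and for TP3 against TP2 control, with medians of 0.89, 0.31 and 1.66. The members moved together from tumor to tumor, so their signs are not independent of each other. Under other settings the number of positive members went down to 2 at TP1 and 6 at TP2, and it stayed at 10 for TP3 against TP2 control.

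The enzymes followed the same tumors. Acp5 was at 39.2, 65.0, 598 and 104 CPM in the HGS2 TP2 controls, at 167, 214 and 318 CPM in the TP2 treated tumors and at 792, 438, 1899 and 111 CPM in the TP3 treated tumors. Ctsk was at 54.7, 85.3, 1038 and 171 CPM, at 242, 441 and 568 CPM, and at 976, 842, 2595 and 157 CPM in the same tumors. Atp6v0d2 was at 2.79, 8.02, 89.5 and 11.5 CPM in the TP2 controls and at 20.2, 31.2 and 50.3 CPM after chemo. At TP2 the treated tumors lay above 3 of the 4 controls and below the remaining one, replicate 3, for each of these 3 genes.

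The fusion genes and Oscar repeated this order. Ocstamp was at 0.483, 1.27, 23.8 and 2.91 CPM in the TP2 controls and at 4.49, 16.8 and 18.0 CPM in the treated tumors. Oscar was at 0.0744, 0.308, 11.8 and 0.794 CPM against 2.75, 7.70 and 8.07 CPM. Dcstamp was at 0.260, 0.732, 15.4 and 1.78 CPM against 4.49, 9.49 and 12.2 CPM. In the HGS2 TP2 control group replicate 3 was the highest tumor for all 10 members. Without it, no member was called in this comparison either.

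The spread inside HGS2 groups was wide for Siglec15, the fusion genes and the enzymes, and narrower for the RANKL and RANK genes and Nfatc1. The within-group SD of log2 CPM over 16 HGS2 tumors was 2.29 for Oscar, 1.87 for Ocstamp, 1.85 for Dcstamp, 1.70 for Atp6v0d2, 1.68 for Siglec15, 1.61 for Ctsk and 1.43 for Acp5, against a median of 0.37 over all genes. It was 0.90 for Tnfsf11, 0.63 for Nfatc1 and 0.50 for Tnfrsf11a. Over all HGS2 tumors Siglec15 ran from 0.140 to 17.2 CPM and Acp5 from 39.2 to 1899 CPM.

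**Figure D3:**
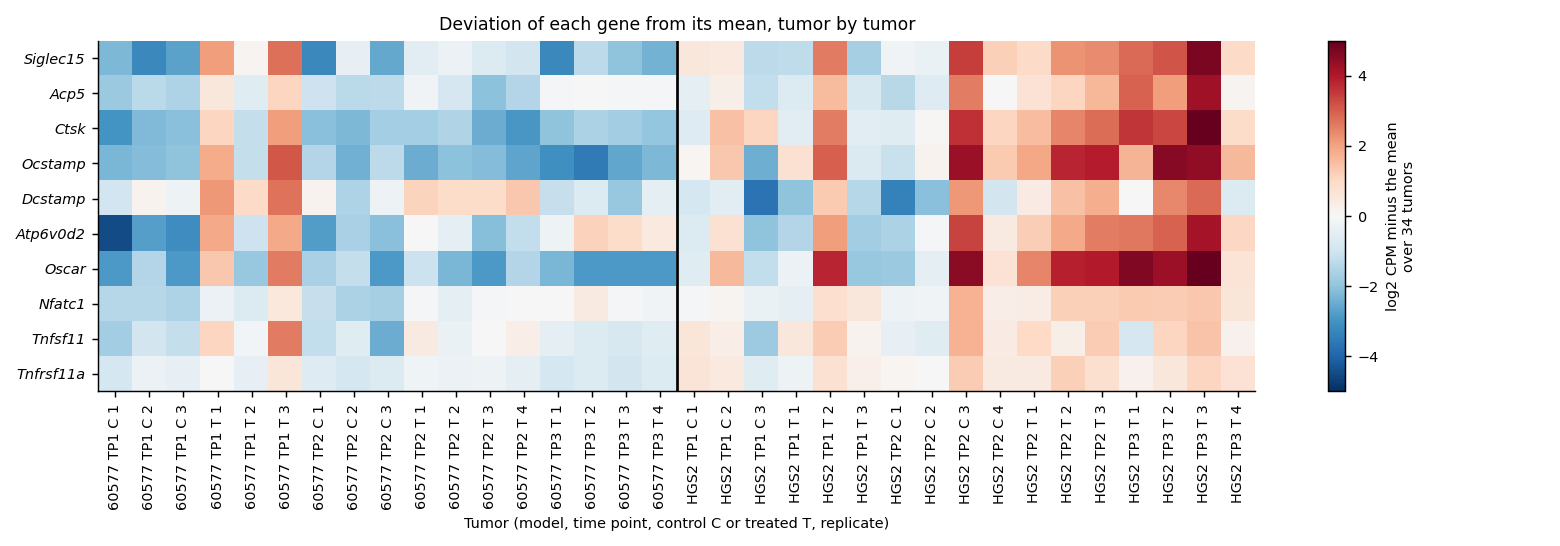
Deviation of log2 CPM from the mean of each gene over 34 tumors (color, from -5 to 5) for each member (rows) in each tumor (columns, 60577 left of the line and HGS2 right). Red columns run through nearly all rows in 60577 TP1 treated replicates 1 and 3 and in HGS2 TP1 treated replicate 2, TP2 control replicate 3 and TP3 treated replicates 2 and 3.

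After group means were removed, Siglec15 moved with every other member across the 16 HGS2 tumors. Pearson's r of log2 CPM with Siglec15 was 0.95 for Atp6v0d2 and Oscar, 0.94 for Acp5, 0.93 for Dcstamp, 0.90 for Ocstamp and 0.87 for Ctsk, and 0.81, 0.80 and 0.79 for Nfatc1, Tnfsf11 and Tnfrsf11a. The median over the other 16240 genes kept was 0.0076. Without TP2 control replicate 3 and TP3 treated replicate 3 the median r of the members with Siglec15 was 0.89, beside 0.90 with them. These are descriptions over tumors that differ in tissue composition and in depth, from 24519694 to 49299442 expected counts. The part of both in these r values was not tested.

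In 60577 the same measure was lower, and its median fell without the TP1 tumors. The median r of the members with Siglec15 was 0.36 over 17 tumors and 0.02 over the 11 tumors of TP2 and TP3, where Siglec15 had at most 0.473 CPM. Over these 11 tumors the members differed in sign, from -0.60 for Dcstamp and -0.54 for Ocstamp to 0.64 for Atp6v0d2. Over 17 tumors the highest values were 0.63 for Atp6v0d2, 0.52 for Tnfsf11 and 0.52 for Ctsk, and Dcstamp was at -0.09. Without TP1 treated replicate 2 the median was 0.03.

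The 8 genes outside the members with the highest r with Siglec15 in 60577 were Tma16, Zfand2a, Slc41a2, Fbxl5, Csnk1a1, Aig1, Steap2 and Nek6, with r from 0.86 to 0.91 over 17 tumors. In HGS2 the r of these 8 genes with Siglec15 lay between -0.19 and 0.34, below that of each of the 9 other members there. The 8 highest in HGS2, chosen after their values were seen, were Gm20056, Gpr137b-ps, Mfsd12, Nyap2, Tm4sf19, Xpr1, Abcb4 and Ifi202b, with r from 0.93 to 0.97 over 16 tumors. Xpr1 encodes a phosphate exporter and Tm4sf19 a tetraspan membrane protein.

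The marker sums of macrophages were less like Siglec15 than the members were in HGS2. The summed macrophage markers were at 1534 to 2852 CPM in the TP2 controls and at 1318 to 2753 CPM in the 4 TP3 treated tumors. Their within-group r was 0.33 with Siglec15 and 0.26 with Acp5 over 16 tumors. TP2 control replicate 3 had 2852 CPM, and TP3 treated replicate 2, with 842 CPM of Ctsk, had the lowest sum of all HGS2 tumors. In 60577 the r with the same sum was 0.81 for Acp5 and -0.07 for Siglec15 over 17 tumors. Lyz2 weighs most in this sum, with a median of 1500 CPM in 60577 beside 217 CPM for Mrc1, the next highest. With the sum of lipid-associated macrophage markers the r of Siglec15 was higher, at 0.57 in 60577 and 0.54 in HGS2, and that of Acp5 was 0.78 and 0.49. That list is not limited to macrophages here. In monoculture it summed to 693 to 774 CPM in 60577 cells and 868 to 1361 CPM in HGS2 cells. The macrophage list had at most 3.93 CPM there.

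Bone-forming markers stood apart in a pair of HGS2 tumors. In TP3 treated replicates 1 and 3 the osteoblast and chondrocyte list summed to 2075 and 2934 CPM, against 33.7 to 460 CPM in the other 32 tumors. Ibsp, which encodes bone sialoprotein, was at 1215 and 1935 CPM there, against at most 208 CPM and a median of 0.0694 CPM in the others. Not all genes of the list separated in this way. Acan was at 18.0 and 28.9 CPM, inside the range of the others (up to 56.4 CPM), and Runx2 at 100 and 148 CPM against at most 93.1 CPM. Bglap, the osteocalcin gene, was at 293 and 245 CPM against at most 30.8 CPM, and Sost, made by osteocytes, at 69.4 and 57.6 CPM against at most 8.60 CPM. Replicate 3 was also the highest tumor of HGS2 for 6 members, among them Siglec15, Acp5 and Ctsk. The part of these markers in the member levels was not tested.

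Over the 16 HGS2 tumors fitted, the within-group r with this sum was 0.52 for Siglec15, 0.53 for Acp5 and 0.49 for Ctsk. TP1 treated replicate 2, with 3.98 CPM of Siglec15, had the highest sum after this pair, 460 CPM. High osteoclast genes did not always stand beside a high sum of the list. TP2 control replicate 3 had a sum of 64.8 CPM with Ibsp at 0 counts, the lowest sum of the HGS2 model, beside 1038 CPM of Ctsk and 7.36 CPM of Siglec15. TP3 treated replicate 2 had a sum of 149 CPM, inside the range of the HGS2 TP2 controls (64.8 to 184 CPM). Without TP3 treated replicate 3, the median r of the members with Siglec15 was 0.92 over 15 tumors.

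**Figure D4:**
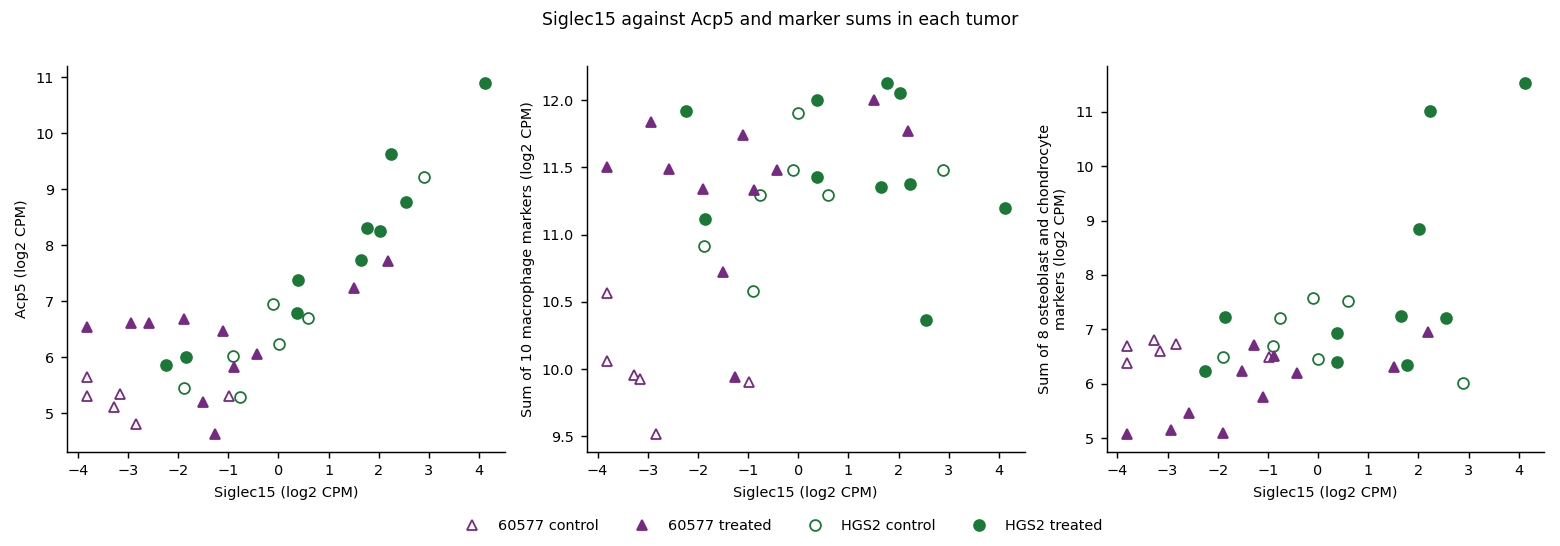
Siglec15 (x axis, log2 CPM) against Acp5, the summed macrophage markers and the summed osteoblast and chondrocyte markers (y axes, log2 CPM) in each of 34 tumors, by model (triangles 60577, circles HGS2) and treatment (filled). Acp5 climbs with Siglec15 across the HGS2 circles, the macrophage sum does not separate them, and 2 filled circles stand above all others for the bone-forming markers.

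Untreated tumors of the models were compared at TP2. With all tumors fitted, 9 of 10 members were called higher in HGS2 than in 60577 controls, beside 9.4% of all genes, but 1 HGS2 tumor carried most of these calls. The 9 include Siglec15, Ocstamp and Oscar, which passed the filter mainly through HGS2, so no support is drawn from their calls. Of the other 7 members 6 were called. Without HGS2 TP2 control replicate 3, 2 members were called (Ctsk and Nfatc1), beside 8.57% of all genes, and with limma-voom or with only the compared groups fitted 3 were. Model, mouse strain and time since injection cannot be told apart in this comparison.

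Ctsk was at 17.4 to 25.04 CPM in the 60577 TP2 controls and at 54.7 CPM or more in HGS2, with a log2 difference of 4.03 ± 1.05 (edgeR adjusted p = 0.00482) and of 2.33 ± 0.86 (edgeR adjusted p = 0.0431) without that tumor. Nfatc1 was at 24.7 to 35.2 CPM against 65.9, 69.1, 260 and 99.0 CPM, with 2.11 ± 0.40 (edgeR adjusted p = 0.000240) and 1.45 ± 0.31 (edgeR adjusted p = 0.000986). Siglec15 differed by 3.85 ± 1.28 and by 2.26 ± 1.19 without that tumor, given as a description since it passed the filter mainly through HGS2. Tnfrsf11a differed by 1.28 ± 0.30 and by 0.94 ± 0.28, which missed only the fold limit. Dcstamp was the member not called, at 0.81 ± 0.97, and its difference turned to -1.48 ± 0.87 without the tumor.

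The macrophage and fibroblast lists moved with this comparison. Of 10 macrophage markers, 7 were called higher in HGS2 and none lower, and their sum was 1534 to 2852 CPM against 959 to 1515 CPM in 60577. Of 6 fibroblast markers, 3 were called higher and none lower, and their sum was 12177 to 32990 CPM against 2845 to 4147 CPM. Col1a1 weighs most in this sum, with a median of 20693 CPM in HGS2 tumors beside 888 CPM for Dcn, the next highest. The list is not limited to fibroblasts here. In monoculture it summed to 7665 to 14535 CPM in HGS2 cells and 814 to 1250 CPM in 60577 cells. The within-group r of Ctsk with the fibroblast sum was 0.64 in 60577 and 0.37 in HGS2. The part of both lists in the member differences was not tested.

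For the difference between the models in their TP2 response, 0 of 10 members were called by edgeR, beside 6.9% of all genes. No member had an unadjusted p under 0.05, and DESeq2 and limma-voom called 0 members. The difference of the Nfatc1 responses, HGS2 minus 60577, was -1.01 on the log2 scale with a 95% interval of -2.05 to 0.02, and that of Siglec15 was -1.10 with an interval of -4.29 to 2.09, and 0.49 without HGS2 TP2 control replicate 3.

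Cell lines in monoculture held almost none of 5 members and expressed the other 5. Siglec15 had 0 to 3 counts, and Ocstamp, Dcstamp, Atp6v0d2 and Oscar had 0 to 3 counts in each of the 4 libraries, so 5 members stayed below the filter. Of the 5 members tested, 3 were called lower in HGS2 than in 60577 cells, beside 8.38% of all genes. Nfatc1 and Tnfsf11 were not called. Nfatc1 was at 11.4 and 12.9 CPM in 60577 and at 9.26 and 11.1 CPM in HGS2 cells, in ascending order. Tnfsf11 was at 0.202 and 0.959 CPM in 60577 and at 1.75 and 2.62 CPM in HGS2 cells, also in ascending order. Acp5 was at 10.7 and 10.3 CPM in 60577 and at 3.37 and 1.70 CPM in HGS2 (log2 -2.06 ± 0.40, edgeR adjusted p = 0.0260). Ctsk was at 3.07 and 6.15 CPM against 0.471 and 0.485 CPM (log2 -3.26 ± 0.52, edgeR adjusted p = 0.0167), and Tnfrsf11a at 20.0 and 15.5 CPM against 4.45 and 2.72 CPM (log2 -2.31 ± 0.34, edgeR adjusted p = 0.0139). Leaving out 60577 library 2 removed all 3 calls, and leaving out 60577 library 1 removed those of Acp5 and Tnfrsf11a. For Ctsk and Tnfrsf11a every HGS2 tumor stood above every 60577 tumor among the TP2 controls, the opposite order to the cells, whereas for Acp5 the tumors overlapped. The tables were normalized separately, so no test joins them.

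Per kilobase of exon, Acp5 and Ctsk led the members in both models. The median over 17 tumors was 28.0 CPM per kb for Acp5, 14.4 for Ctsk, 8.49 for Nfatc1 and 5.71 for Tnfrsf11a in 60577, and 61.2, 152, 15.6 and 11.1 in HGS2, where Ctsk stood first. In 60577 Tnfsf11, Atp6v0d2 and Dcstamp followed at 1.69, 1.51 and 1.44 CPM per kb and their ranges overlapped, and Siglec15, Ocstamp and Oscar were last at 0.172, 0.0537 and 0.0197. In HGS2, Atp6v0d2 and Tnfsf11 were at 6.47 and 3.43, and Siglec15, Ocstamp, Dcstamp and Oscar lay close together between 0.841 and 1.07 CPM per kb.

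The wider osteoclast pathway was read from 6 lists with 50 further genes, of which 49 were tested. In 60577 at TP2, 9 of these 49 rose and 3 fell after chemo, beside 14.8% and 9.61% of all genes. Both counts lay near those shares, so the genes named here are not a result about the pathway as a whole. Risen signaling genes were Syk (log2 1.45), Btk (1.23) and Plcg2 (1.09), kinases and a phospholipase that carry signals from DAP12-coupled receptors, and risen transcription factors were Mitf (1.76) and Prdm1 (1.29), both of which promote osteoclast genes. Irf8, a repressor of osteoclast formation, also rose, by 1.65. Tnf (1.76), Tcirg1 (1.19) and Plekhm1 (1.05) completed the genes that rose, and Fos, Il1b and Cd9 fell by 1.66, 1.45 and 1.43. The calls of Tnf, Syk, Btk, Mitf, Irf8 and Cd9 held without any 1 of the 17 tumors, and those of Plcg2, Fos, Prdm1 and Il1b were lost without TP2 control replicate 2, that of Tcirg1 without treated replicate 3 and that of Plekhm1 without treated replicate 4. Among the lost calls only that of Il1b missed the limit of adjusted p (edgeR adjusted p = 0.0547), and the others missed only the fold limit. Syk, Btk, Plcg2, Irf8 and Prdm1 are also used by B cells or dendritic cells, whose markers moved with this comparison.

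At TP3 against the TP2 controls, 11 of 49 pathway genes were higher and 3 lower, beside 14.2% and 10.2% of all genes. T cell and B cell markers were called higher in 6 of 6 and 5 of 5 and dendritic cell markers in 4 of 6. Of 4 neutrophil markers tested, 3 were called lower. The part of these lists was not tested. Mitf (log2 1.82), Btk (1.63), Irf8 (1.58), Syk (1.43), Plcg2 (1.19) and Prdm1 (1.12) were among those called higher, as were Mmp9 (1.83), a gelatinase of osteoclasts, and the macrophage growth factor gene Il34 (1.13). Il1b and Fos were lower, at -2.64 and -1.55. The Mmp9 call was lost without any 1 of 5 tumors, with an edgeR adjusted p of up to 0.137. Those of Plcg2, Prdm1, Il34 and Fos were lost without TP2 control replicate 2, where they missed only the fold limit. Adam8 was called lower at -1.59, but without TP2 control replicate 2 its difference was 0.10.

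No pathway gene was called in HGS2 in any of the 5 comparisons. Between untreated models at TP2, 14 were higher in HGS2 and 2 lower, beside 9.4% and 6.94% of all genes, and 6 and 2 without HGS2 TP2 control replicate 3, beside 8.57% and 6.96%. Mmp9 (log2 4.19 ± 1.31) and the antiporter gene Slc9b2 (2.22 ± 0.80) lost their calls without that tumor. Fcer1g, an adaptor that pairs with Oscar, was higher by 2.39 ± 0.40, the integrin gene Itgb3 by 2.12 ± 0.40, Mmp14 by 2.13 ± 0.29 and Prdm1 by 2.05 ± 0.47, and none of these 4 calls was lost when any 1 of the 33 tumors was left out. In monoculture Itgb3 was also called higher in HGS2 than in 60577 cells, by 2.68 ± 0.26 (edgeR adjusted p = 0.0050). Of 38 pathway genes tested in the cell lines, 4 were called higher in HGS2 and 5 lower, beside 2189 of all 13742 genes called in either direction. The part of the malignant cells in the tumor differences was not tested.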

How the data were processed

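Omental tumors (34) and cell lines in monoculture (4 libraries) were profiled by total RNA sequencing after removal of ribosomal RNA. Per the labels, the authors trimmed reads with Trim Galore 0.6.5, aligned them to mm10 with STAR 2.7.0f and deposited RSEM expected counts per gene, which were rounded to whole numbers here; the version of RSEM is not given in the sources used here.

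Genes at 1 CPM in at least 25% of libraries were kept (16241 in tumors, 13742 in cell lines) and scaled by TMM. edgeR 4.0.16 (R 4.3.3) quasi-likelihood tests with Benjamini-Hochberg adjustment were run per model over its 5 groups (17 tumors of 60577, 16 of HGS2), over 33 tumors for contrasts between models, and for the cell lines separately. A gene was called at an adjusted p under 0.05 and an absolute log2 fold change over 1. Log2 CPM was taken with a prior count of 2, and the fits kept the default prior count of edgeR. The SE of a log2 difference was taken from the F statistic, and its 95% interval used the normal quantile. Such intervals are narrower than the test itself allows, so a few exclude 0 at an unadjusted p above 0.05. Intervals from counts cover counting error only. Alternatives included DESeq2 1.42.0, limma-voom 3.58.1, other filters and scalings, a replicate block and leaving out each tumor. The scripts were checked on simulated data.

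The members and gene lists were chosen with earlier results of these data known. Named genes were all members, the called pathway genes (at most 4 per list, largest change first), the 8 genes most like Siglec15 in 60577, and markers by list. Likeness was Pearson's r of log2 CPM after removal of group means. Among 44 pairs of replicates none was identical. Same-numbered tumors did not deviate together (median r -0.04 in 60577 and -0.08 in HGS2), so replicate numbers were not used as pairs. p-values measure the spread between these tumors or, for the cell lines, between libraries.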

Additional observations from a re-analysis of the deposited data

Results flagged for a closer look

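Within groups of 4 tumors, the highest or lowest CPM of a member was set against the other 3 by Dixon's test. The gap over range was above the 95% critical value in 10 of 40 cases. The chance rate of about 1 in 20 holds for independent values with a normal spread. The test used CPM without a log scale, and the members moved together, so the 10 cases cannot be weighed against that rate. They serve only to point out tumors. One of the 10 is a single count beside counts of 0, for which the gap equals the range by construction.

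HGS2 TP2 control replicate 3 was the highest tumor in 8 of these cases. It had 7.36 CPM of Siglec15 (next tumor 1.44), 598 CPM of Acp5 (next 104), 1038 CPM of Ctsk (next 171) and 260 CPM of Nfatc1 (next 99.0). It also had 23.8 CPM of Ocstamp (next 2.91), 15.4 CPM of Dcstamp (next 1.78), 89.5 CPM of Atp6v0d2 (next 11.5) and 11.8 CPM of Oscar (next 0.794). The 8 cases are 1 tumor and not independent of each other.

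In the other two cases Oscar had 0.0359 CPM, a single count, in 60577 TP3 treated replicate 1 and no count in the remaining tumors of its group, and Nfatc1 was lowest in HGS2 TP3 treated replicate 4 at 117 CPM (next 188).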

How the results depend on the processing

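The number of members called at TP2 in 60577 (3) went to 1 with both models fitted together. For TP3 against TP2 treated tumors of 60577 (1) it was 2 with limma-voom and with DESeq2, 0 with both models together, 3 with only the compared groups, and 1 to 3 with 1 tumor left out, the 3 without TP2 treated replicate 1. Between untreated models (9) it was 3 with limma-voom, 3 with only the compared groups, 2 without HGS2 TP2 control replicate 3 and TP3 treated replicate 3 (an alternative chosen after seeing the data), and 2 to 9 with 1 tumor left out, the 2 without HGS2 TP2 control replicate 3. For the cell lines (3) it was 0 to 3. In 60577 at TP1, 1605 genes were called with both models together and 2535 otherwise.

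The log2 difference of Siglec15 changed sign in comparisons where it was not called. For 60577 TP3 treated against TP2 control it ran from -1.55 to 2.06 with 1 tumor left out, the latter without TP2 control replicate 2. For HGS2 at TP1 it was -0.24 with limma-voom and ran from -1.89 to 1.65 with 1 tumor left out, the former without TP1 treated replicate 2. For HGS2 at TP2 it was -0.29 without 3 tumors rich in acinar markers (chosen after seeing the data) and ran from -0.27 to 1.63 with 1 tumor left out. For the difference between models it was 0.49 without HGS2 TP2 control replicate 3 and TP3 treated replicate 3, and ran from -3.99 to 0.49, the latter without HGS2 TP2 control replicate 3. Adam8 ran from -2.04 to 0.10 for 60577 TP3 against TP2 control and from -2.01 to 0.14 between models, both positive values without 60577 TP2 control replicate 2. The cause was not tested, except that these fits hold fewer tumors.

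With the replicate block, 2 members were called at TP2 in 60577 (Tnfsf11 lost its call, edgeR adjusted p = 0.0814), 3 and 1 in the TP3 comparisons, 0 in each HGS2 comparison, 8 between models (without Acp5), 0 for the difference between models and 3 in the cell lines. In 60577 at TP1 the block gave 2379 genes, and the Siglec15 difference in HGS2 at TP2 was -0.091. Of the 60577 tumors, 3 of 17 were closest to their own number, and 2 of 16 in HGS2. Crossing the cell line numbers, chosen after seeing the data, also called 3.

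Depth limits Siglec15 and Oscar in 60577, where a count of 0 allows up to 0.0904 to 0.147 CPM.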
